A study of Mus musculus with 11 samples.

Results

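The genes described here are 9 that serve the working functions of astrocytes: the water channel gene Aqp4, the glutamate transporter genes Slc1a2 and Slc1a3, the glutamine synthetase gene Glul, the folate enzyme gene Aldh1l1, the calcium-binding protein gene S100b, the connexin genes Gja1 and Gjb6, and the transcription factor gene Sox9. They were chosen by symbol, and all 9 were found once each among the 37991 genes of the expression table. The rule uses only the symbol, not a level.

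RNA had been sequenced from cultured neural stem cells of the frontal cortex of C57BL/6J mouse embryos, taken at E14.5. Cells in proliferation medium were sampled at day 0 (NSC, 3 libraries). The others were sampled at day 4 after a change to 1 of 3 media, each of which also held GlutaMAX at 2 mM. The Astrocyte medium was DMEM with 1% N-2 and 1% fetal bovine serum (3 libraries), the Neuron medium was Neurobasal with 2% B-27 (3 libraries), and the Oligodendrocyte medium added T3, a thyroid hormone, at 30 ng/mL to the Neuron medium (2 libraries). Each group is thus named for its medium, and the names do not say which cells were present. All cultures came from embryos of that strain, and no culture kept in proliferation medium until day 4 was analysed here, so the change of medium and the time in culture cannot be told apart in any comparison with NSC.

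Astrocytes take up the glutamate that neurons release, convert it to glutamine, buffer water and ions around synapses and vessels, and are joined to each other by gap junctions. Slc1a2 and Slc1a3 encode the transporters for the uptake, and Glul encodes the enzyme for the conversion. Several of these genes are not private to astrocytes: radial glia, the neural stem cells of the embryo, also use Slc1a3 and Sox9, and cells of the oligodendrocyte lineage also use Glul and S100b. In bulk RNA, a lower level from fewer cells of a type and one from less RNA per cell cannot be told apart.

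Levels are given in CPM, the authors' read counts scaled to a common total. The estimated depth was 49.3 to 66.2 M (mega) reads a library, so that 1 read was worth 0.0151 to 0.0203 CPM. Log2 fold changes are differences of log2(CPM + 1), given ± SE. A gene was called higher or lower where limma's two-sided moderated test, fitted to the 13342 genes that reached 1 CPM in 2 or more libraries, gave a Benjamini-Hochberg adjusted p under 0.05. All 9 genes passed that filter. S100b and Gjb6 passed only through their day 4 libraries, since no NSC library reached 1 CPM for either, and Gjb6 reached it in the Astrocyte and Neuron libraries alone. Between libraries of a group the coefficient of variation of the members, where the group mean was 1 CPM or more, was 0.954% to 14.6%, with a median of 6.34%.

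The 3 day 4 groups did not order the members alike. Of the 9 genes, 6 had their highest mean in the Neuron medium (Slc1a2, Slc1a3, Glul, Aldh1l1, S100b and Gjb6) and 3 in the Astrocyte medium (Aqp4, Gja1 and Sox9). None was highest in NSC or in the Oligodendrocyte medium. How often all genes were highest in each group was not counted, so these counts describe the 9 genes only.

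**Figure D1:**
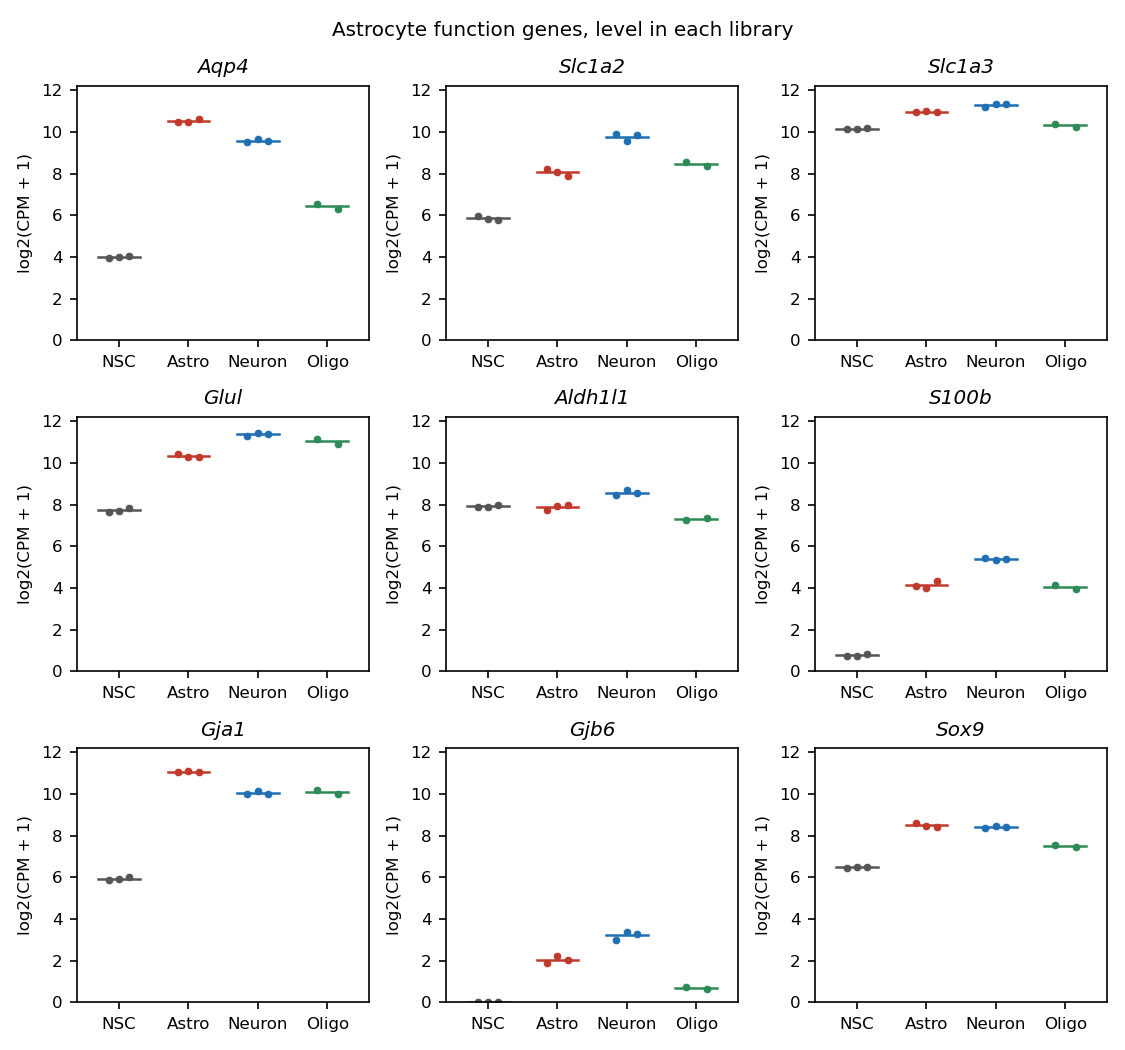
Level of each of the 9 genes on the log2(CPM + 1) scale (vertical axis) in every library, by group; each point is a library and each line a group mean. Aqp4 and Gja1 are highest in the Astrocyte libraries, while Slc1a2, Glul, S100b and Gjb6 are highest in the Neuron libraries.

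Aqp4 encodes the water channel of astrocyte endfeet and lies at chr18:15547903-15562193 on the minus strand (mm9, the build of the file and of every gene position unless another is named). It stood at 14.6, 15.2 and 15.8 CPM in the NSC libraries, 1444, 1444 and 1550.2 CPM in Astrocyte, 738, 806 and 745 CPM in Neuron, and 93.6 and 77.6 CPM in Oligodendrocyte. The 4 groups were wholly separate, in the order Astrocyte, Neuron, Oligodendrocyte, NSC. The mean was 97.5 times that of NSC in Astrocyte, 50.3 times in Neuron and 5.64 times in Oligodendrocyte (log2 fold changes 6.52 ± 0.07, 5.56 ± 0.07 and 2.42 ± 0.08). The Neuron mean was 8.92 times the Oligodendrocyte mean, a log2 fold change of -3.15 ± 0.08 for Oligodendrocyte against Neuron (adjusted p = 1.05e-11). On the log2(CPM + 1) scale no other member differed as much between those 2 media, while the ratio of means was higher for Gjb6.

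Slc1a2 encodes the main glutamate transporter of mature astrocytes (chr2:102498816-102630941, plus strand). Its levels were 61.2, 56.4 and 54.1 CPM in NSC, 299, 271 and 239 CPM in Astrocyte, 941, 746 and 921 CPM in Neuron, and 379 and 328 CPM in Oligodendrocyte. It was thus lowest before the change of medium and highest in the Neuron medium, with no overlap between any groups. Against NSC the log2 fold change was 2.21 ± 0.10 in Astrocyte, 3.90 ± 0.10 in Neuron and 2.60 ± 0.11 in Oligodendrocyte. The Neuron mean was 3.23 times the Astrocyte mean (log2 fold change of Astrocyte against Neuron -1.68 ± 0.10, adjusted p = 1.53e-08).

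Slc1a3 encodes the glutamate transporter that radial glia already carry (chr15:8584124-8660764, minus strand). It was high in every library, at 1114, 1137 and 1153 CPM in NSC, 2008, 2025 and 1981 CPM in Astrocyte, 2358, 2625 and 2596 CPM in Neuron, and 1338 and 1215 CPM in Oligodendrocyte. Its range over the groups was the narrowest of the 9, a factor of 2.23 between the highest and the lowest mean. It rose in Astrocyte (0.82 ± 0.08) and Neuron (1.15 ± 0.08). In Oligodendrocyte both libraries lay above the 3 NSC libraries, but the difference was not called (0.17, 95% interval -0.01 to 0.35, adjusted p = 0.0813). That value sat close to the threshold, with an adjusted p of 0.047 when only these 2 groups were in the fit and a turned sign (-0.08) with quantile normalization.

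Glul encodes glutamine synthetase (chr1:155747074-155756853, plus strand). NSC had 200.03, 207 and 224 CPM, Astrocyte 1396, 1226 and 1224 CPM, Neuron 2518, 2782 and 2716 CPM, and Oligodendrocyte 2256 and 1934 CPM. The groups did not overlap, and the Astrocyte medium gave the lowest level of the 3 day 4 media. Glul rose 6.09-fold over NSC in Astrocyte, 12.7-fold in Neuron and 9.96-fold in Oligodendrocyte (log2 fold changes 2.60 ± 0.09, 3.66 ± 0.09 and 3.31 ± 0.10). Mature oligodendrocyte markers, whose 8 genes summed to 73.9 to 82.3 CPM in NSC, were at 446 to 570 CPM in Astrocyte, 2714 to 2896 CPM in Neuron and 2633 to 3019 CPM in Oligodendrocyte. Their part in the levels of Glul and S100b was not tested.

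Gja1 encodes the connexin that forms most gap junctions of astrocytes (chr10:56097106-56110225, plus strand). It stood at 58.4, 59.5 and 63.5 CPM in NSC, 2125, 2160.3 and 2094 CPM in Astrocyte, 1007, 1141 and 1036 CPM in Neuron, and 1181 and 1024 CPM in Oligodendrocyte. The Astrocyte libraries were above all others, and the Neuron and Oligodendrocyte libraries overlapped. Gja1 rose 35.2-fold in Astrocyte, 17.6-fold in Neuron and 18.2-fold in Oligodendrocyte over NSC. It was the only member whose Oligodendrocyte and Neuron levels were not called different (0.05, 95% interval -0.12 to 0.23, adjusted p = 0.572), and the sign of that small difference flipped with median-of-ratios scaling (-0.10).

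Gjb6 encodes a second connexin of astrocytes, one that appears late in the maturing brain (chr14:57742140-57752448, minus strand). It was listed at 0.02, 0.02 and 0 CPM in NSC, about 1, 1 and 0 reads. Astrocyte had 2.74, 3.66 and 3.12 CPM, Neuron 7.06, 9.24 and 8.59 CPM, and Oligodendrocyte 0.65 and 0.57 CPM. Gjb6 was therefore nearly absent before the change of medium, and the 3 day 4 groups did not overlap. From the estimated reads the ratio to NSC was 280 in Astrocyte (exact 95% interval 77.2 to 2320), 734 in Neuron (203 to 6067) and 53.8 in Oligodendrocyte (14.4 to 452), intervals that cover counting error only. The Neuron mean was 13.6 times the Oligodendrocyte mean (log2 fold change of Oligodendrocyte against Neuron -2.52 ± 0.12, adjusted p = 1.13e-09).

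S100b encodes a calcium-binding protein of astrocytes and of some oligodendrocyte-lineage cells (chr10:75716598-75723904, plus strand). Its levels were 0.68, 0.66 and 0.81 CPM in NSC, 16.1, 14.8 and 19.1 CPM in Astrocyte, 41.9, 40.1 and 41.6 CPM in Neuron, and 16.8 and 14.7 CPM in Oligodendrocyte. Neuron was highest with no overlap, whereas Astrocyte and Oligodendrocyte overlapped and were not called different (-0.07, 95% interval -0.29 to 0.16, adjusted p = 0.601). The Neuron mean was 57.5 times the NSC mean (4.62 ± 0.09), and the Astrocyte and Oligodendrocyte means were 23.2 and 22.0 times it.

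Aldh1l1 encodes a cytosolic dehydrogenase of formyltetrahydrofolate and is used as a general astrocyte marker (chr6:90436421-90550197, plus strand). NSC had 236, 239 and 255 CPM, Astrocyte 211, 239.5 and 248 CPM, Neuron 352, 414 and 378 CPM, and Oligodendrocyte 152 and 160.3 CPM. NSC and Astrocyte overlapped, Neuron was above both and Oligodendrocyte below both. Against NSC the log2 fold change was -0.07 in Astrocyte (95% interval -0.23 to 0.10, adjusted p = 0.421), 0.64 ± 0.08 in Neuron (adjusted p = 2.78e-06) and -0.64 ± 0.08 in Oligodendrocyte (adjusted p = 1.06e-05). Aldh1l1 was the only member lower than NSC in any day 4 group by this test. With quantile normalization the Astrocyte value, still not called, was 0.09.

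Sox9 encodes a transcription factor of neural stem cells and astrocytes (chr11:112643538-112649074, plus strand). It stood at 86.9, 88.6 and 87.7 CPM in NSC, 390.4, 349.8 and 339 CPM in Astrocyte, 333, 346 and 339.7 CPM in Neuron, and 188 and 175 CPM in Oligodendrocyte. Astrocyte and Neuron overlapped (0.08, 95% interval -0.05 to 0.21, adjusted p = 0.271, and -0.02 with median-of-ratios scaling), and Oligodendrocyte lay between them and NSC. The rise over NSC was 4.10-fold in Astrocyte, 3.87-fold in Neuron and 2.07-fold in Oligodendrocyte.

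Levels of different genes were compared per kilobase of exon, with exon lengths from GENCODE M21 (GRCm38), which may differ from the gene models the authors counted on. On this scale Slc1a3 was the most abundant member in NSC, at 133 ± 2.3 CPM per kilobase (SD, n = 3). Glul was first in every day 4 group, at 386 ± 29.8 in Astrocyte (SD, n = 3), 804 ± 41.3 in Neuron (SD, n = 3) and 630.3 ± 68.5 in Oligodendrocyte (SD, n = 2). Aqp4 was second in Astrocyte (237 ± 9.9 CPM per kilobase; SD, n = 3) and seventh in Oligodendrocyte (13.7 ± 1.8; SD, n = 2). Gjb6 was last in all 4 groups.

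Most members were higher in each day 4 group than in NSC. In Astrocyte 8 of the 9 were called higher and none lower, in Neuron 9 were higher, and in Oligodendrocyte 7 were higher and Aldh1l1 was lower. S100b and Gjb6 are in these counts although the filter admitted them only through the groups where they are high, so their rise was favoured by it. Without them 6 of 7 were higher in Astrocyte, 7 in Neuron and 5 in Oligodendrocyte, with medians of 2.21, 3.66 and 2.42. Among all genes tested, 48.0% were called higher and 35.6% lower in Astrocyte, 43.5% and 39.6% in Neuron, and 48.1% and 32.2% in Oligodendrocyte, so a call alone says little about any gene here. Sizes differed more: over the 9 the median log2 fold change was also 2.21 in Astrocyte, 3.66 in Neuron and 2.42 in Oligodendrocyte, beside medians over all genes of 0.15, 0.06 and 0.19. With Gjb6 set at its ratio of reads, which the + 1 of the log scale understates, the members' medians were 2.60, 3.90 and 2.60. The 3 comparisons share the NSC libraries.

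**Figure D2:**
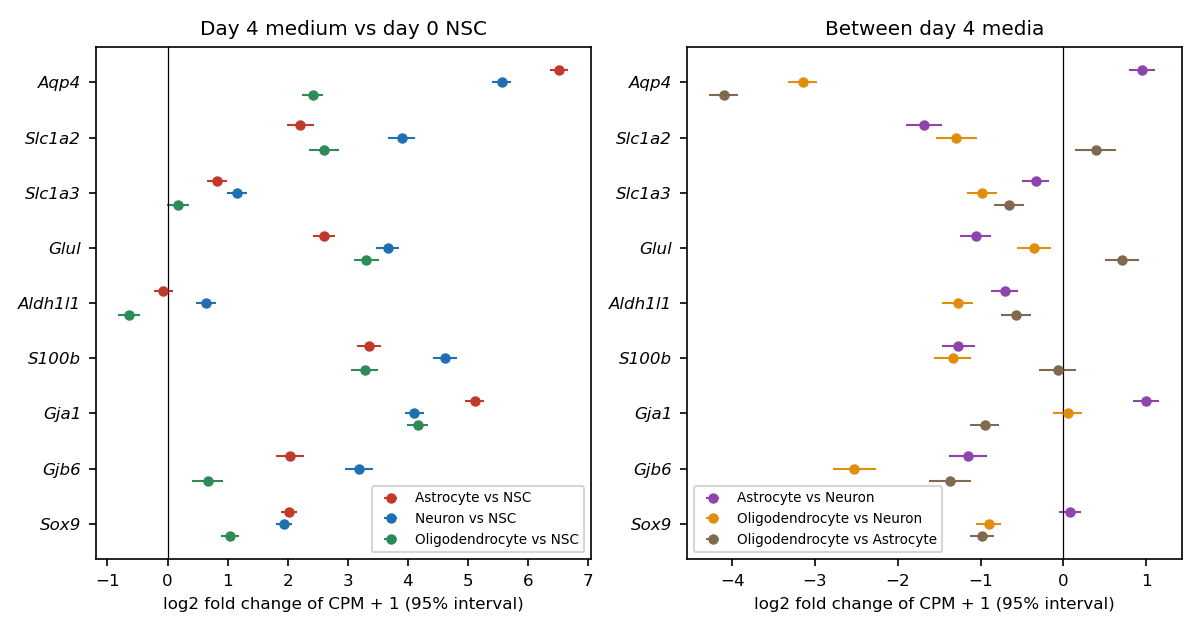
Log2 fold change of each member with its 95% interval, for the 3 day 4 groups against NSC (left) and between the day 4 groups (right). In the comparison of Oligodendrocyte with Neuron every interval except that of Gja1 lies below 0.

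Added T3 is the labelled difference between the Oligodendrocyte and Neuron media, and in that comparison 8 of the 9 members were called lower, none higher. Of all genes tested, 43.9% were called higher and 23.6% lower there. The falls ranged from -3.15 ± 0.08 for Aqp4 and -2.52 ± 0.12 for Gjb6 through -1.34 ± 0.10 for S100b, -1.29 ± 0.11 for Slc1a2, -1.28 ± 0.08 for Aldh1l1, -0.98 ± 0.08 for Slc1a3 and -0.90 ± 0.07 for Sox9 to -0.35 ± 0.10 for Glul (adjusted p = 0.00509). The members' median was -1.28, beside 0.15 over all genes. Gjb6 had passed the filter through Neuron and not through Oligodendrocyte, and without it 7 of 8 were lower, with a median of -1.13. Relative to that median over all genes the members stood between -3.30 and -0.10.

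The fall of Glul was the least secure of these. With quantile normalization its sign turned (0.09, adjusted p = 0.282), and without Oligodendrocyte replicate 2 it was -0.24 (adjusted p = 0.0894). Oligodendrocyte replicate 1 was above replicate 2 in 8 of the 9 members, all but Aldh1l1. With only 2 libraries in that group, its spread is read mainly from the other groups. Scaling also moved the balance over all genes in this comparison: 65.1% of the calls were on the higher side with CPM as deposited, 51.9% after median-of-ratios scaling and 48.0% after quantile normalization.

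Between the Astrocyte and Neuron media the members divided. Aqp4 (0.95 ± 0.07) and Gja1 (1.00 ± 0.07) were higher in Astrocyte. The other 6 called members were lower there: Slc1a2 (-1.68 ± 0.10), S100b (-1.27 ± 0.09), Gjb6 (-1.15 ± 0.11), Glul (-1.06 ± 0.09), Aldh1l1 (-0.71 ± 0.08) and Slc1a3 (-0.33 ± 0.08). Over all genes 40.3% were called higher and 22.0% lower in Astrocyte. The higher side held 64.7% of all calls with CPM as deposited and 52.8% and 48.5% with the 2 other scalings. These 2 media differ in their base, their supplement and the serum, so no single ingredient can be named for any of these values.

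Between the Oligodendrocyte and Astrocyte media 2 members were higher in Oligodendrocyte and 6 lower, against 28.7% and 23.5% of all genes. Gjb6 is among the 6 although it had passed the filter through Astrocyte and not through Oligodendrocyte, so its fall was favoured by the filter. Glul (0.71 ± 0.10) and Slc1a2 (0.39 ± 0.11) were the higher ones. Slc1a2 was no longer called with quantile normalization (0.30, adjusted p = 0.0587) or without Oligodendrocyte replicate 1 (0.29, adjusted p = 0.131). The lower ones were Aqp4 (-4.10 ± 0.08), Gjb6 (-1.37 ± 0.12), Sox9 (-0.98 ± 0.07), Gja1 (-0.95 ± 0.08), Slc1a3 (-0.65 ± 0.08) and Aldh1l1 (-0.57 ± 0.08).

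Promoter windows of 250 bases before to 50 bases after a start listed in the RefSeq table (GRCm38.p6) were found for 7 of the 9 members. The windows may lie inside the gene spans given above, which are on another build. The windows were searched on both strands for AGGTCA, the half-site bound by thyroid hormone receptors and other nuclear receptors, because added T3 separates 2 of the media. It occurred in 3 of the 7 windows (Slc1a2, Glul and Aldh1l1), beside 16.3% of all 32851 windows of the table. The motif TTCNNNGAA, known as a STAT site, occurred in the window of Slc1a3 alone, beside 8.30% of all windows. A match of letters is a description and does not show binding. In Slc1a2 it lies after the start. The 2 stretches that hold it before the start are shown 5′ to 3′ on the plus strand, with the match in capitals. In Glul (chr1:153899679-153899928) it begins 57 bases before the start, and in Aldh1l1 (chr6:90550543-90550792) it is read on the minus strand, so it appears as TGACCT, 178 bases before the start.
Glul: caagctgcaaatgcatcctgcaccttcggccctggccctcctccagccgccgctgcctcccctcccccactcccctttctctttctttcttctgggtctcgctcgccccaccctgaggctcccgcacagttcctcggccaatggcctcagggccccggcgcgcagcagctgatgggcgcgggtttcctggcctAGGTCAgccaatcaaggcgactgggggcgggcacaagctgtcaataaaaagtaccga
Aldh1l1: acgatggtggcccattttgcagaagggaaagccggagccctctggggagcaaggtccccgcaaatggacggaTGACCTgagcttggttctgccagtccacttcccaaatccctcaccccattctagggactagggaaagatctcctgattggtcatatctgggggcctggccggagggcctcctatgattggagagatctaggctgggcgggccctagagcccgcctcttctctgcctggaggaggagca
The 2 genes with these stretches fell by unlike amounts in Oligodendrocyte against Neuron (-0.35 for Glul and -1.28 for Aldh1l1), and Aldh1l1 alone of the 2 was below NSC there. The sign for Glul turned with quantile normalization. Slc1a2, with its match after the start, fell by 1.29. Of the members whose windows lack AGGTCA, Gjb6 (-2.52), S100b (-1.34) and Slc1a3 (-0.98) fell and Gja1 (0.05) was not called. The part of the motif in these values was not tested.

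The members were set beside 7 lists of genes with related roles. Of the water and ion balance list, which holds other water channels, ion channels and transporters and the endfoot complex, 13 of 16 tested genes were higher and none lower in Astrocyte against NSC, 14 were higher and 2 lower in Neuron, and 14 higher and 1 lower in Oligodendrocyte. The shares of all genes called higher were 48.0%, 43.5% and 48.1%, and those called lower 35.6%, 39.6% and 32.2%. Counts against NSC in the lists that follow are to be read against these shares. Here and below, listed genes with no NSC library at 1 CPM passed the filter only through day 4 libraries. A rise in them was favoured by it, as for S100b and Gjb6. Counts in Oligodendrocyte against Neuron, here and below, are to be read against 43.9% higher and 23.6% lower. Atp1b2, a beta subunit of the sodium pump, rose from 209.9 CPM in NSC to 2189.6 in Astrocyte, 754 in Neuron and 1260.4 in Oligodendrocyte. Mlc1, a membrane protein of astrocyte endfeet, rose by 1.99 ± 0.09, 1.32 ± 0.09 and 1.07 ± 0.10. In Oligodendrocyte against Neuron, where Aqp4 fell by 3.15, 6 genes of this list were higher and 6 lower. Atp1b2 rose there by 0.74 ± 0.08, and Mlc1 fell by 0.25 (SE 0.10, adjusted p = 0.0407).

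Genes of glutamate, glutamine and GABA handling went both ways against NSC, with 7 of 15 higher and 8 lower in Astrocyte, 9 and 6 in Neuron, and 7 and 8 in Oligodendrocyte. Slc1a1, a glutamate transporter best known from neurons, rose from 6.04 CPM to 46.0 in Astrocyte, 159 in Neuron and 136 in Oligodendrocyte. Glud1, glutamate dehydrogenase, rose by 1.26 ± 0.08, 1.35 ± 0.08 and 1.10 ± 0.09. Slc38a1, a glutamine transporter, was highest in Astrocyte, at 842 CPM against 324 in Neuron.

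Of the other connexins, pannexins and the junction scaffold Tjp1, 8 of 11 genes were tested. Gjc3, a connexin of oligodendrocytes, rose by 0.70 ± 0.12 in Astrocyte, 2.83 ± 0.12 in Neuron and 3.69 ± 0.13 in Oligodendrocyte, and so had its highest level where Gjb6 had its lowest of the 3. Panx1 fell in Astrocyte (-0.88 ± 0.06) and rose in Oligodendrocyte (1.05 ± 0.07). Panx2 rose from 0.143 CPM to between 3.79 and 4.47 CPM in the 3 media. Tjp1 ranged only from 191 to 251 CPM.

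The folate list is the metabolic setting of Aldh1l1, and its direction matched that of Aldh1l1 in Oligodendrocyte against NSC, where Aldh1l1 and most of the list were lower, but not in Neuron against NSC or in Oligodendrocyte against Neuron. Against NSC 11 of 15 genes were lower in Astrocyte, 12 in Neuron and 11 in Oligodendrocyte. In Neuron, where Aldh1l1 rose, the log2 fold change was -4.36 ± 0.09 for Mthfd2 and -2.06 ± 0.07 for Shmt2, both mitochondrial folate enzymes. In Oligodendrocyte against Neuron 11 of the 15 were higher and none lower, Mthfd2 by 2.60 ± 0.10 and Mthfd1 by 0.97 ± 0.06, while Aldh1l1 fell by 1.28. Several of these enzymes also supply nucleotides to dividing cells.

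Other S100 genes mostly rose with S100b against NSC, 7 of 9 in Astrocyte, 6 in Neuron and 7 in Oligodendrocyte, the list's receptor gene Ager included in the 9. Among them S100a3, S100a4 and S100a6 reached at most 0.05, 0.89 and 0.30 CPM in NSC. These genes passed the filter only through day 4 libraries, so their rise was favoured by it. S100a1 stood at 3.62 CPM in NSC and 76.7, 43.2 and 31.4 CPM in the 3 media, highest in Astrocyte where S100b was not. S100a16 had its highest level in Neuron, as S100b did (137 CPM). S100a10 fell in all 3 media.

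Of the glial transcription factors 7 of 13 were higher and 4 lower in Astrocyte, 7 and 4 in Neuron, and 6 and 5 in Oligodendrocyte against NSC, near the shares of all genes. Sox2, the stem cell factor often found with Sox9, ranged from 281 CPM in NSC to 534 CPM in Neuron and was not called in Oligodendrocyte (0.16 ± 0.08). Hopx was highest in Astrocyte, at 84.7 CPM against 20.8 and 22.9 CPM in the other 2. Zbtb20 rose by 3.15 ± 0.28, 1.70 ± 0.28 and 3.14 ± 0.32.

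Of the other astrocyte-enriched genes 23 of 25 were higher in Astrocyte, 22 in Neuron and 22 in Oligodendrocyte against NSC. Itih3, Atp13a4 and Slc14a1 were among those with no NSC library at 1 CPM, so a rise in them was favoured by the filter. Gfap, the filament gene, had means of 2.22 CPM in NSC, 7631 in Astrocyte, 2647 in Neuron and 284 in Oligodendrocyte, the group order of Aqp4. Apoe, which carries lipid, was at 71.7, 5477, 4905 and 1767 CPM. Clu, a secreted chaperone, was at 6.33, 1145, 218 and 413 CPM, and so was higher in Oligodendrocyte than in Neuron (0.93 ± 0.12), unlike 8 of the 9 members. In Oligodendrocyte against Neuron 9 of the 25 were higher and 14 lower.

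**Figure D3:**
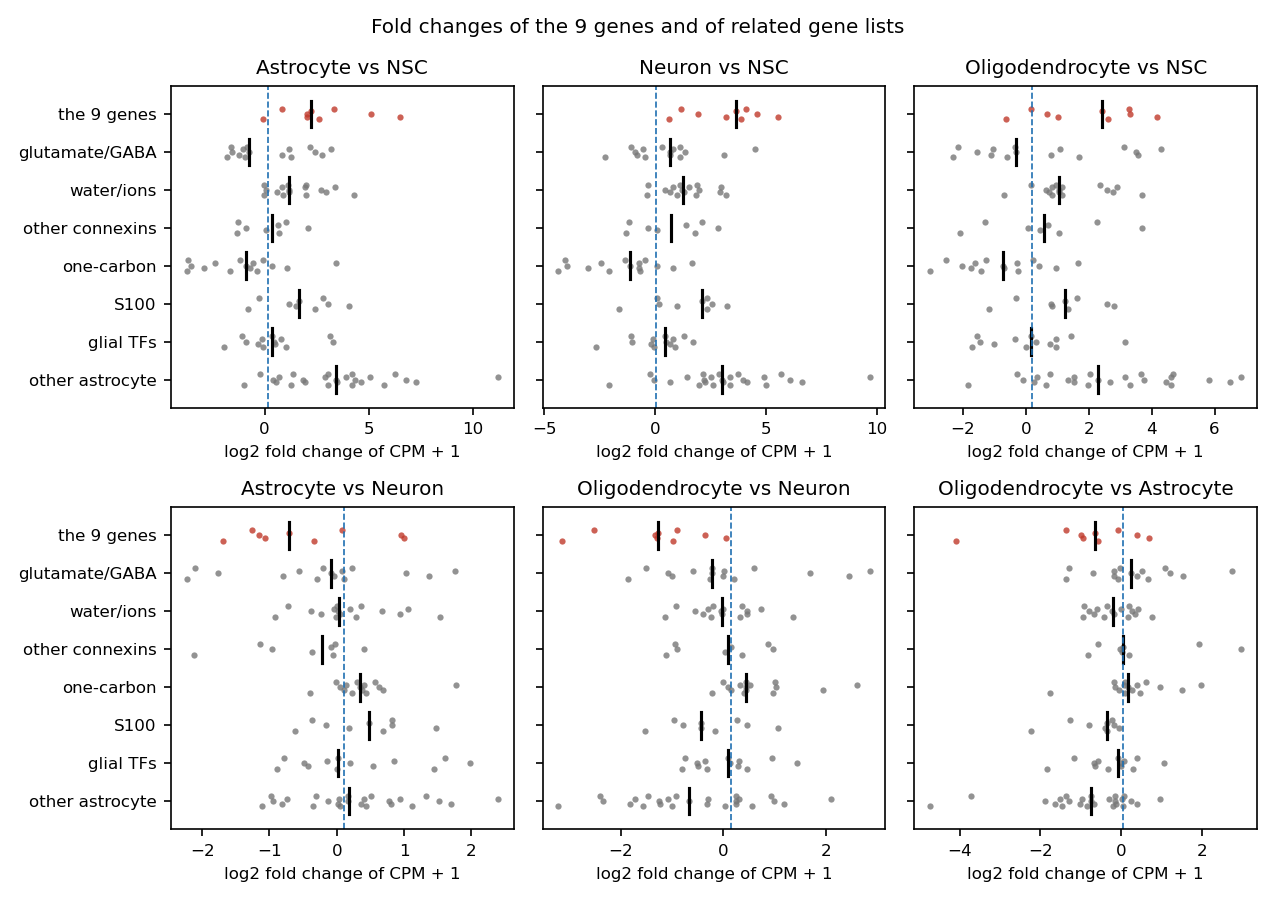
Log2 fold changes of the tested genes of the members and of the 7 related lists in the 6 comparisons, each dot a gene, the black line the median of the list and the dashed line the median of all genes. In Oligodendrocyte against Neuron the members have a median of -1.28 while the folate list has one of 0.44.

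Markers of other cells were read in the same libraries. Neural progenitor markers summed to 7413 to 7566 CPM in NSC and 3805 to 4993 CPM over the day 4 libraries, with all 8 above 1 CPM in every group mean. The sum hides opposite moves. Tnc fell from 986 CPM in NSC to between 15.3 and 22.2 CPM, and Nes from 1251 to between 70.4 and 419 CPM. In Astrocyte Vim (1863 to 2663 CPM), Pax6 (36.8 to 85.9) and Prom1 (3.44 to 42.0) rose. Called higher and lower against NSC were 3 and 5 in Astrocyte, 3 and 4 in Neuron, and 1 and 6 in Oligodendrocyte, to be read against the shares above. Mitochondrial genes took 6.01% to 6.22% of the listed CPM in NSC and 7.64% to 11.4% at day 4, and the part of this in the comparisons with NSC was not tested. The 10 neuron markers found in the table summed to 98.1 to 104 CPM in NSC and 172 to 286 CPM at day 4. In the Neuron medium 7 of these 10 averaged 1 CPM or more, led by Dcx, a gene of young neurons, at 148 CPM (125 CPM in Astrocyte). Gad1 had 35.3 CPM there, Tubb3 28.4, Gap43 21.6, Syt1 11.1 and Snap25 3.02 CPM. Rbfox3, a gene of mature neurons, had a mean of 2.34 CPM there, and Stmn2 had 0.417 CPM. Slc17a6 and Slc17a7, of glutamatergic neurons, had 0.367 and 0.203 CPM. Of the 7 tested neuron markers 6 were called higher and 1 lower in Neuron against NSC, beside 43.5% and 39.6% of all genes. Rbfox3, among the 6, reached at most 0.88 CPM in NSC, so its rise was favoured by the filter. Most of the NSC sum was Gap43, at 71.0 CPM.

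Ependymal markers, like Aqp4 and Gja1, were highest in the Astrocyte medium. Their 7 genes summed to 17.5 to 20.3 CPM in NSC, 241 to 265 CPM in Astrocyte, 43.4 to 58.8 CPM in Neuron and 141 to 148 CPM in Oligodendrocyte, most of it Foxj1 (223 CPM in Astrocyte). Tmem212 was under 0.05 CPM in NSC, Neuron and Oligodendrocyte. In Oligodendrocyte against Neuron 4 of the 6 tested ependymal markers were called higher and none lower, beside 43.9% and 23.6% of all genes. Aqp4 was lower there (-3.15 ± 0.08), and Gja1 was not called. Mesenchymal and pericyte markers summed to 8.18 to 10.9 CPM in NSC and 81.0 to 89.4 CPM in Astrocyte. Neuron had 38.3 to 44.9 CPM and Oligodendrocyte 19.0 to 19.1 CPM. Nearly all of it was Pdgfrb (41.9 CPM in Astrocyte) and Acta2 (42.0 CPM). The other 5 genes of that list had means under 0.1 CPM in Astrocyte. Endothelial markers summed to 2.37 to 2.50 CPM in NSC, 5.59 to 7.37 CPM in Astrocyte, 1.22 to 2.02 CPM in Neuron and 2.84 to 3.05 CPM in Oligodendrocyte. Most of that was Kdr, at 1.27 CPM in NSC and 5.99 CPM in Astrocyte (1.62 ± 0.12, adjusted p = 1.36e-08), while Cdh5 and Cldn5 were under 0.05 CPM in every group. The part of ependymal, mesenchymal and endothelial cells in the levels of Aqp4 and Gja1 was not tested. Microglia markers summed to at most 0.350 CPM in any library. Oligodendrocyte precursor markers summed to 1790.3 to 1921 CPM in NSC, 709.9 to 798 CPM in Astrocyte, 1610.0 to 2170 CPM in Neuron and 1338 to 1462 CPM in Oligodendrocyte. In NSC most of that sum was Olig1 (1019 CPM) and Olig2 (733 CPM), both with lower means in every day 4 group. Of the 7 precursor markers, 4 were called higher and 3 lower against NSC in each medium. Their median log2 fold changes were 1.81 in Astrocyte, 3.05 in Neuron and 1.60 in Oligodendrocyte. Neu4, among the 4 higher ones, reached at most 0.09 CPM in NSC, so its rise was favoured by the filter.

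**Figure D4:**
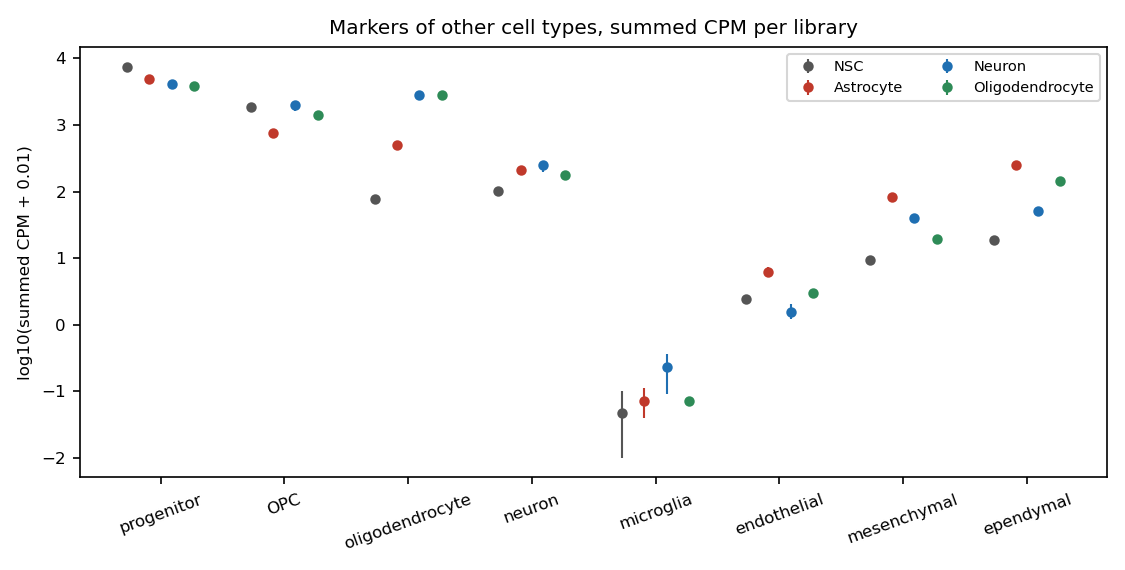
Summed level of 8 marker lists by group, as log10 of the sum in CPM plus 0.01; points are group means and bars the lowest and highest library. Mature oligodendrocyte markers are similar in the Neuron and Oligodendrocyte groups, at 2834 and 2826 CPM, and ependymal markers are highest in Astrocyte.

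Genes with the most similar profile to each member were sought by the root-mean-square difference of centred log2(CPM + 1) values over the 11 libraries, among genes that averaged 10 CPM or more in 1 of the groups. The libraries fall into 4 groups, so likeness here is mostly likeness of 4 levels. Slc1a3 had the closest match, Crot (0.064), then Sox9 with Hs3st3a1 (0.099) and Gja1 with the zinc transporter gene Slc39a12 (0.117). Slc39a12 stood at 1.69, 98.7, 43.5 and 46.6 CPM in NSC, Astrocyte, Neuron and Oligodendrocyte. Glul was nearest to Rnd2 (0.166) and to Gal3st1 (0.169), the sulfotransferase that makes sulfatide for myelin. S100b was nearest to Kcnk2 (0.166) and Enpp2 (0.169), and Gjb6 to Gpr37l1 (0.246). Aldh1l1 was nearest to B230209K01Rik (0.129) and Ccng2 (0.150), and Slc1a2 to E130309F12Rik (0.163). Aqp4, with the widest range of these, was nearest to C1ql1 (0.562, correlation 0.992) and Pdgfrb (0.714, correlation 0.980), the latter also in the pericyte marker list.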

How the data were processed

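Poly(A)-selected, strand-marked libraries had been made with the TruSeq Stranded mRNA kit and sequenced on an Illumina HiSeq, per the labels' protocols. Per the file headers, the authors' deposited table holds CPM, 1 column a library, on mouse build mm9. The submitters' processing notes name TopHat2 2.0.8, HTSeq 0.6.1 and build NCBIM37, without their settings. Whether reads were counted by strand is not given in the sources used here, so reads of overlapping antisense genes cannot be told apart.

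Depth was estimated from the evenly spaced steps of values under 3 CPM, on which 99.9% to 100% of them lay. Only 24.4% to 61.5% lay within 0.1 of a whole read after rounding, so no count test was run. All values were put on log2(CPM + 1), filtered at 1 CPM in at least 2 libraries, and fitted with limma 3.58.1 in R 4.3.3 with 1 mean per group over all 11 libraries, a mean-variance trend and 7 residual degrees of freedom (5.96 prior). Each of 6 pairs of groups was compared, with adjustment over all genes tested. The script was tested on simulated data. Replicates are biological per the series text. Samples were grouped by their labels. The labels give no batch.

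The 9 genes, the lists and the tests were chosen with earlier results of these data known. Genes named from a list are its 3 tested genes with the highest mean and the 1 further gene with the widest range of group means, with other genes named by the likeness rule. Some genes that this rule names are not reported here. Single markers were named after their values were seen. Alternatives were other pseudocounts (0.1 and 5), filters (none, 5 CPM), scalings, a replicate term, fits to 2 groups and leaving out each library.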

Additional observations from a re-analysis of the deposited data

Results flagged for a closer look

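Among the 9 members and the genes named from the 7 related lists, marker lists not searched, there were 3 genes in which 2 day 4 media moved the level in opposite directions from NSC, and the direct comparison of the media was called by limma. The compared media share the NSC libraries. Aldh1l1 was 0.64 above NSC in Neuron and -0.64 from it in Oligodendrocyte on the log2 scale, a difference of -1.28 ± 0.08 (adjusted p = 2.92e-08). Panx1, a pannexin channel gene, was -0.88 from NSC in Astrocyte and 1.05 above it in Oligodendrocyte, a difference of 1.93 ± 0.07 (adjusted p = 3.43e-10). Mthfd1, a folate enzyme gene, was -0.74 from NSC in Neuron and 0.23 above it in Oligodendrocyte, a difference of 0.97 ± 0.06 (adjusted p = 2.01e-08). For Aldh1l1 the 3 signs held under every alternative run. Alternatives were not run for Panx1 and Mthfd1.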

How the results depend on the processing

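Of 729 recomputed values of single members, 715 kept their sign and their side of the threshold. In 8 more, which belong to 5 differences not called in either fit, the small value changed sign. Glul in Oligodendrocyte against Neuron reversed with quantile normalization (0.089, adjusted p = 0.282), and was not called with only those 2 groups in the fit (-0.354, adjusted p = 0.0523) or without Oligodendrocyte replicate 2 (-0.243, adjusted p = 0.0894). Slc1a2 in Oligodendrocyte against Astrocyte lost its call with quantile normalization (0.301) and without Oligodendrocyte replicate 1 (0.289), so that 1 member, not 2, was called higher there in both. Slc1a3 in Oligodendrocyte against NSC gained a call with only 2 groups in the fit (0.168, adjusted p = 0.047). The cause was not tested. The largest shift of the median of all genes was in Oligodendrocyte against NSC, from 0.188 to -0.041 with quantile normalization, where the share of calls on the higher side went from 59.9% to 47.7%.

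Correlations of same-numbered libraries' deviations from their group means ran from -0.505 to 0.415. Differently numbered libraries were not set beside them, so these values cannot tell whether the replicate numbers pair the samples. With the replicate block no member gained or lost a call, and Glul in Oligodendrocyte against Neuron was -0.345. Depth limits mainly Gjb6 in NSC, at about 2 reads in 3 libraries. Leaving out 1 Oligodendrocyte library leaves that group with 1, assumed to vary like the others.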
